A study of Mus musculus with 4 samples.

Results

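Interferon-stimulated genes are the genes that cells switch on after interferon binds its receptors, and chromatin accessibility at 41 of them was examined by ATAC-seq in the mouse macrophage line RAW264.7. The genes were a fixed list of well-known antiviral and immune effectors, given by name and with no threshold on their signal, and all 41 were found in RefSeq, against 21440 protein-coding genes with a usable start site in all. In ATAC-seq, the Tn5 transposase cuts open DNA and tags it for sequencing, so that accessible regions appear as peaks of coverage. All cells were wild type and received 25 ug/mL of fluorescently labelled oxidized LDL (DIL-oxLDL) for 24 h. The control group had the solvent DMSO in place of the compound (0 ug/mL, 2 libraries), and the esculetin group had 40 ug/mL of the plant coumarin esculetin (2 libraries). There was no group without oxLDL and no group given interferon, and the labels do not say whether the libraries of a group came from separate cultures, so p-values measure only the spread between these libraries.

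Type I interferons act through the receptor subunits IFNAR1 and IFNAR2 and the kinases JAK1 and TYK2, and the signal ends at a complex with IRF9 that binds the interferon-stimulated response element (ISRE) in promoters. Interferon gamma acts through another promoter element, the gamma-activated site (GAS). Macrophages keep a basal level of this pathway, and the induced proteins sense viral nucleic acid, block translation, degrade RNA and restrict virus entry or release.

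The ISRE is the best-known element of such promoters, so matches of 10 genes are shown first, 5 with promoter peaks and 5 without. The RefSeq promoter table (GRCm38.p6, the assembly of mm10) holds 300 bases per start site, 250 before and 50 after it, and matched 32 of the 41 genes with 39 start sites. Each line gives the gene strand 5′ to 3′, with the letters GAAANNGAA or their reverse complement in capitals and 10 bases on either side. Eif2ak2 and Gbp7 had promoter peaks in control libraries only, Trim25 in all libraries, Trim21 and Gbp3 in both control libraries and 1 esculetin library, and Isg15, Ifit1, Oas3, Ifit3 and Ifit3b had no peak within 1 kb of the start in any library.
Eif2ak2 (chr17:78882536-78882564, minus strand): agtccgccggGAAAACGAAacagaagaga
Gbp7 (chr3:142530274-142530302, plus strand): tgtgtgcagtTTCAGTTTCagttctccat
Trim25 (chr11:88999384-88999412, plus strand): gcccctcctgTTCAGTTTCgattccttcc
Trim21 (chr7:102565451-102565479, minus strand): cctctgagagGAAACTGAAagtgaaattt
Gbp3 (chr3:142559990-142560018, plus strand): aggacacagtTTCAGTTTCtatttcccag
Isg15 (chr4:156200872-156200900, minus strand): gtaggaaaagGAAACCGAAacagaaaata
Ifit1 (chr19:34640795-34640823, plus strand): cagtctcagtTTCAGTTTCtcactgctga
Oas3 (chr5:120777716-120777744, minus strand): gcagggaggaGAAAACGAAagtgaaggga
Ifit3 (chr19:34583398-34583426, plus strand): ttaagtctgtTTCAGTTTCtactttcctc
Ifit3b (chr19:34607794-34607822, plus strand): ttaagtctgtTTCAGTTTCtactttcctc

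The printed stretches of Ifit3 and Ifit3b were the same letters, and the longest run shared by their windows was 169 of 300 bases. Reads with several matches were discarded by the authors, and the part of this step in the missing calls of these copies was not tested. On either strand, and counting matches that overlap each other or a GAS, the ISRE letters stood in 23 of the 39 windows (59.0%), which belonged to 22 of the 32 genes, against 8.56% of all 32851 windows in the table. The GAS letters TTCNNNGAA stood in 11 of the 39 windows (28.2%) against 8.30% of all windows. The CCAAT box, the element bound by NFY, stood in 33.3% against 37.4%, and the GC box GGGCGG in 33.3% against 35.7%. Over the 21263 windows of protein-coding genes, the ISRE stood in 8.15%, the GAS in 7.69%, CCAAT in 38.2% and the GC box in 46.2%. Since 78.0% of the genes were matched, which is under 80%, the shares of the listed genes describe the 32 genes only.

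The 4 peak lists differed in length and make-up. The control lists held 19595 and 27833 peaks and the esculetin lists 8677 and 12792, and the genome-wide background coverage, a measure of depth solved from the lists, was 6.51, 4.08, 4.97 and 4.10. Summits within 1 kb of a coding start site made up 39.6% and 29.4% of the control lists and 62.0% and 53.3% of the esculetin lists. Control replicate 2 stood apart in other respects. Of its peaks, 7.40% lay in annotated pseudogenes and 8.49% in the final 10% of a coding gene of at least 5 kb. In the other libraries these shares were 0.836% to 1.97% and 1.69% to 3.41%. Macrophage markers were called unevenly at their 5′ ends. Spi1, which encodes the myeloid factor PU.1, had a promoter peak in all 4 libraries and Cd68 in 3 of them. Of the 8 markers, control replicate 1 had 3, control replicate 2 had 5, esculetin replicate 1 had 1 and esculetin replicate 2 had 2. Csf1r, Adgre1 and Itgam had none. Of 16 markers of kidney epithelium, T cells, B cells and fibroblasts, 1 was called in any library (Col3a1, in control replicate 2).

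A gene was called when a peak summit lay within 1 kb of its transcription start site (TSS), taken as the 5′ end of the RefSeq gene. Fewer interferon-stimulated promoters were called in each esculetin library than in either control. Control replicates 1 and 2 had 17 and 19 of the 41 genes (41.5% and 46.3%), and esculetin replicates 1 and 2 had 5 and 12 (12.2% and 29.3%). The groups did not overlap, and esculetin replicate 1 was lowest. Over all protein-coding genes, control shares were 37.3% and 38.8% and esculetin shares 27.9% and 34.9%, so that the listed genes lay above the coding-gene share in both controls and below it in both esculetin libraries. The mean was 18.0 ± 1.41 genes in the control group and 8.50 ± 4.95 in the esculetin group (SD, n = 2 each), a difference of -9.5, or 0.472 of the control mean, against 0.825 over all coding genes. The 8 macrophage markers stood close to the coding-gene share in control replicate 1 (37.5%) and above it in control replicate 2 (62.5%). They stood below it in both esculetin libraries (12.5% and 25%), with a ratio of 0.375. Their part in the result was not tested. A two-sided exact permutation test returned p = 0.33, which is the lowest that 2 against 2 libraries can reach, and the difference between the list and all genes was not tested. The direction turned when the 8581 strongest peaks of each list were used. The counts were then 8 and 1 for the controls and 5 and 6 for esculetin, in which the groups overlapped, against 25.5%, 17.9%, 27.9% and 30.2% of all coding genes.

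**Figure D1:**
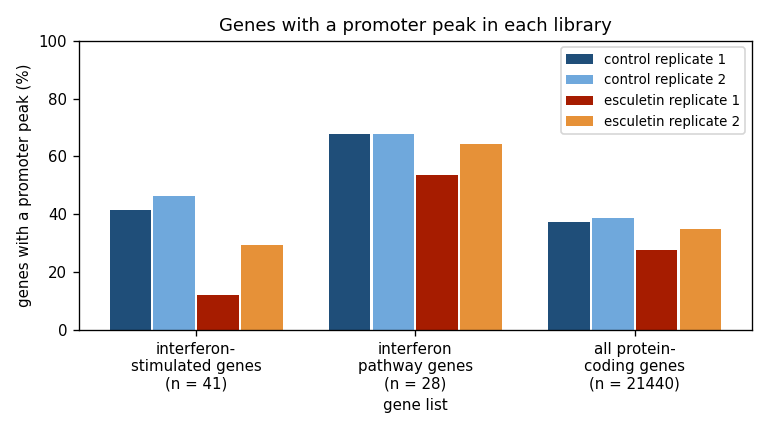
Bars give the percentage of genes with a peak summit within 1 kb of the start site (vertical axis, from 0) in each library, for the 41 interferon-stimulated genes, 28 interferon pathway genes and 21440 protein-coding genes (horizontal axis). The interferon-stimulated genes stand at 41.5% and 46.3% for the controls and at 12.2% and 29.3% for esculetin.

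Of the 41 genes, 18 had no promoter peak in any library (43.9%, against 56.4% of coding genes), and 3 had one in all 4 libraries (7.32%, against 24.8%). A further 6 were called in both controls but neither esculetin library (14.6%), where 3.34% of coding genes showed that pattern. These were Usp18, Eif2ak2, Oas2, Mx2, Gbp7 and Ifi47. No gene had the opposite pattern, which 0.41% of coding genes showed. Of the 15 genes called in both control libraries, 6 had no esculetin call (40%), against 9.7% of the coding genes called in both. Without control replicate 2, 7 genes were called in the remaining control library and neither esculetin library (17.1%, against 4.86% of coding genes). Without esculetin replicate 2, 11 of the 41 genes were called in both controls and not in the remaining esculetin library. Over all coding genes this was 1908 of 21440 (8.9%). With the 8581 strongest peaks of each list, Eif2ak2 alone kept the pattern (2.44% of the list, against 0.471% of coding genes), and Bst2 alone had the opposite one (2.44%, against 4.15%). A missing call is not a measurement of closed chromatin, since a site may fall a little short of the threshold for a peak, and in a cell population fewer open cells and less open chromatin in each cell cannot be told apart.

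**Figure D2:**
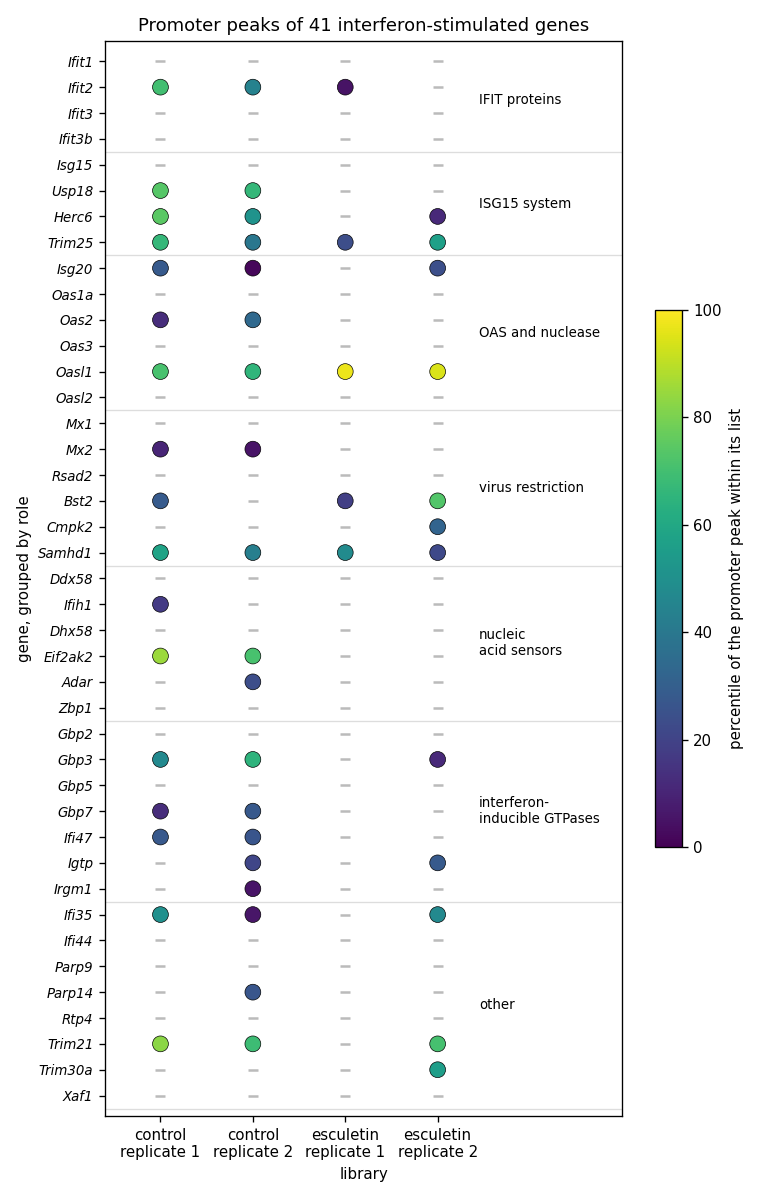
Each row is 1 of the 41 genes, grouped by role, and each column is a library. A filled circle marks a promoter peak and its colour gives the percentile of that peak within its list (0 weakest, 100 strongest), and a grey dash marks no promoter peak. The circles thin out from 17 and 19 in the control columns to 5 and 12 in the esculetin columns, and Oasl1 is brightest in the esculetin columns.

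The called promoter peaks of these genes had lower median percentiles than those of coding genes in all 4 lists. The strength of a peak is given as the percentage of peaks in its list with a −log10 p at or below its own. The median over the called genes was 49.9 and 33.8 for the controls and 23.8 and 39.5 for esculetin, whereas over called coding genes it lay between 60.3 and 72.0. Among coding genes called in both control libraries, the share with no esculetin call was 41.1% at a mean control percentile up to 25, then 24.5% and 8.47%, and 1.21% above 75. RefSeq lists 39 of the 41 genes as protein-coding, and 14 of these were called in both controls. In the lowest bin were Gbp7, Oas2 and Isg20, of which the first and second had no esculetin call, and in the next were Ifi47, with none, and Ifi35. Usp18 was 1 of 7 listed genes in the bin from 50 to 75 and the only one of them without an esculetin call. Eif2ak2 was 1 of 2 in the top bin, where 38 of 3149 coding genes had no esculetin call. By mean control percentile, Eif2ak2 (78.0) and Usp18 (70.0) stood in places 27 and 65 of the 717 coding genes called in both controls only, and the other listed genes from place 577 down.

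**Figure D3:**
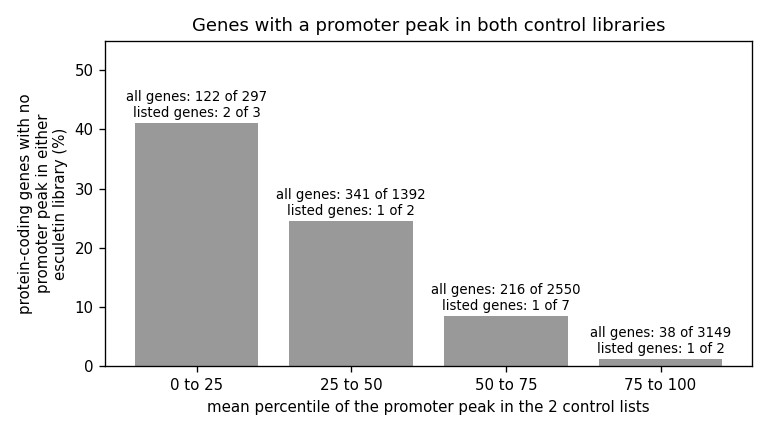
Bars give the percentage of protein-coding genes with no promoter peak in either esculetin library (vertical axis, from 0) among genes with one in both control libraries, by the mean percentile of that peak in the 2 control lists (horizontal axis). The text over each bar counts all genes and the interferon-stimulated genes. The share falls from 41.1% to 1.21%, and Eif2ak2 is the listed gene in the top bin without a call.

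To compare libraries of different depth, the summit coverage of each peak was solved from its fold enrichment and p-value and divided by the genome-wide background coverage of its library, here called relative coverage. Over the 5317 coding genes called in all 4 libraries, the median log2 ratio of the esculetin to the control mean of this measure was 0.05, so it was on a similar scale in both groups at shared promoters. The lowest relative coverage that a list could call at its genome-wide background was 2.61 and 3.19 for the controls and 3.02 and 3.17 for esculetin, and the shortest peak was 200 bp long. The limits given below for single promoters assume the local background of the control peaks. They apply to the summit alone and take no account of peak length, so a summit above a limit may still go uncalled.

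The ISG15 system attaches the ubiquitin-like protein ISG15 to other proteins and removes it again. Usp18 (chromosome 6, 121245906 to 121270917), which encodes the protease that removes ISG15 and dampens receptor signalling, had a promoter peak with a relative coverage of 5.84 in control replicate 1 and 7.60 in control replicate 2, with summits 49 and 52 bp before the TSS. Neither esculetin library had a peak between 10 kb before Usp18 and its 3′ end. The limits of the esculetin lists there were 3.22 and 3.17, well under both control values. Herc6, an ISG15 ligase in mouse, had 5.84 and 6.37 in the controls with summits 10 and 26 bp after the TSS. Its esculetin replicate 2 call was another, weaker peak 359 bp after the TSS with a relative coverage of 4.15, and esculetin replicate 1 had none. Trim25, a ubiquitin ligase that acts on RIG-I, was called in all libraries, with 6.61 and 7.60 in the controls and 5.44 and 7.81 in the esculetin libraries. These values overlapped between the groups. Isg15 itself had no promoter peak.

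Among the nucleic acid sensors, Eif2ak2 (chromosome 17, 78850504 to 78882572) had the strongest control peak of the 6 genes called in the controls only. It encodes PKR, a kinase that halts translation when it binds double-stranded RNA. Relative coverage reached 7.07 in control replicate 1 and 8.33 in control replicate 2, with summits 36 and 32 bp before the TSS and 58 and 54 bp from the nearest ISRE match. The esculetin lists had no peak in the gene or in the 10 kb before it, and their limits at the promoter were 3.42 and 3.41. The TSS of another coding gene, Gm26637, lay within 1 kb of this peak. Ifih1 (MDA5) was called in control replicate 1 alone and Adar, an RNA-editing enzyme, in control replicate 2 alone, while Ddx58 (RIG-I), Dhx58 and Zbp1 had no promoter peak. Adar also had a peak 16220 to 16238 bp into the gene in both control libraries and esculetin replicate 2, beside an internal start that RefSeq places at 89730718 on chromosome 3. Its relative coverage there was 6.76 and 11.0 in the controls and 9.03 in esculetin replicate 2.

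The oligoadenylate synthetases make a second messenger that activates RNase L, and the members of this family differed in their calls. Oas2 was called at its TSS in the control libraries only, with a relative coverage of 3.53 and 5.88. The lower of these was close to the limit of 3.42 and 3.41 in the esculetin lists. Oas1a and Oasl2 had no peak in their windows in any library, and the peaks of Oas3 lay 1795 and 1874 bp into the gene in the control libraries (relative coverage 6.30 and 7.84) and were not called in the esculetin libraries. Isg20, an exonuclease that degrades RNA, had its strongest promoter peak 502 bp before the TSS in control replicate 1 (relative coverage 4.61). Control replicate 2 and esculetin replicate 2 were called 565 bp after the TSS instead, at 3.92 and 5.61, where an overlapping weaker peak of control replicate 1 had 3.38.

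Oasl1 had higher values with esculetin. This gene (chromosome 5, 114923143 to 114937911) encodes a catalytically inactive relative that represses translation of Irf7 mRNA. Its peak lay 603 to 641 bp before the TSS in all libraries, in a region from 114921672 to 114922671 with no TSS of another coding gene within 1 kb. Relative coverage was 6.61 and 8.09 for the controls and 13.3 and 14.4 for esculetin. The groups did not overlap, a pattern that 18.4% of the 5317 coding genes called in all libraries showed in this direction and 10.3% in the other. The percentiles were 70.7 and 65.5 in the controls and 97.3 and 94.3 in the esculetin libraries, and both esculetin values were above both controls in 14.7% of those genes. The log2 ratio of the group means was 0.91, and 44 of the 5317 genes (0.828%) had a larger one. No ISRE match stood in its promoter window, which does not reach the peak.

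**Figure D4:**
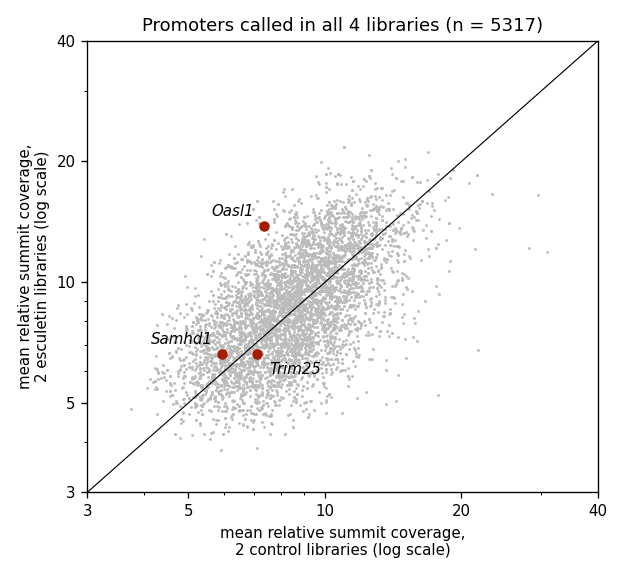
Each point is 1 of 5317 protein-coding genes with a promoter peak in all 4 libraries. The axes give the mean relative summit coverage (coverage at the summit over the genome-wide background coverage, log scales) of the 2 control libraries and of the 2 esculetin libraries, and the line marks equal values. Oasl1 lies well above the line with a log2 ratio of 0.91, and Samhd1 (0.15) and Trim25 (-0.10) lie near it.

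The proteins that restrict viruses directly gave mixed patterns. Mx2, a dynamin-like GTPase that RefSeq lists in this assembly as a transcribed pseudogene together with Mx1, was called in the control libraries only, at a relative coverage of 4.76 with a summit 92 bp after the TSS in control replicate 1 and of 5.15 with summits 920 and 192 bp before it in control replicate 2. These values lay just above the limits of 4.23 and 4.39 in the esculetin lists. Bst2 (tetherin), which holds budding virions at the cell surface, was called in both esculetin libraries at 4.83 and 8.78 and in control replicate 1 at 4.15, but not in control replicate 2. Samhd1, an enzyme that depletes deoxynucleotides, was called in all libraries at 5.53 and 6.37 in the controls and 6.64 and 6.59 in the esculetin libraries. The esculetin values lay above both controls, but the log2 ratio was 0.15 and the percentiles of 58.1 and 43.0 against 47.9 and 21.9 overlapped. Cmpk2 was called in esculetin replicate 2 alone, and Mx1 and Rsad2 (viperin) had no peak in their windows.

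The interferon-inducible GTPases attack membranes of intracellular pathogens, and none of the 7 was called in esculetin replicate 1, where 27.9% of coding genes were. Ifi47 was called at the same position, 56 bp before the TSS, in both control libraries only, with a relative coverage of 4.00 and 5.15 against limits of 3.02 and 3.17 in the esculetin lists. Gbp7 was also called in the controls only, at 3.53 and 5.39, but its summits lay 284 bp after and 73 bp before the TSS in peaks that did not overlap. Gbp3 had 4.61 and 8.33 in the controls and 4.15 in esculetin replicate 2. Igtp was called in control replicate 2 and esculetin replicate 2, Irgm1 in control replicate 2 alone, and Gbp2 and Gbp5 in none.

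The IFIT proteins bind foreign RNA and block its translation. Of the 4 genes, Ifit2 alone was called, at a relative coverage of 5.84 and 6.13 in the controls and 3.82 in esculetin replicate 1. Among the remaining genes, Trim21, a ubiquitin ligase that binds antibodies in the cytosol, had 6.45 and 8.82 in the controls and 8.05 in esculetin replicate 2, while esculetin replicate 1 had no call there. Ifi35 had 5.38 and 4.41 in the controls and 6.10 in esculetin replicate 2. Parp14 was called in control replicate 2 alone and Trim30a in esculetin replicate 2 alone, and Ifi44 and Xaf1 had no peak in their windows. Trim30a also had a peak beside an internal RefSeq start, 18957 bp into the gene in control replicate 1 and 18662 bp in esculetin replicate 2. Its relative coverage there was 3.84 and 6.10. Parp9 had a peak 1361 to 1460 bp after its 5′ end in all libraries, outside the 1 kb limit and within 1 kb of the TSS of the neighbouring Dtx3l. Rtp4 had a peak 37249 and 37190 bp into its RefSeq span in control replicates 1 and 2 and in no esculetin library.

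**Figure D5:**
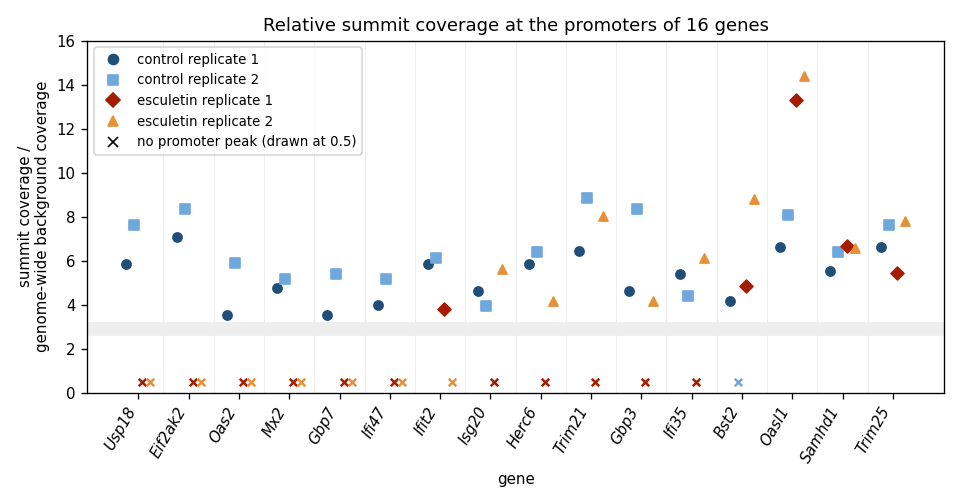
Relative summit coverage (coverage at the summit over the genome-wide background coverage, vertical axis) of the strongest promoter peak of 16 genes (horizontal axis) in each library, shown by colour and shape, with crosses drawn at 0.5 for libraries with no promoter peak. The grey band spans the lowest values the lists could call at their genome-wide background (2.61 to 3.19). Usp18 and Eif2ak2 stand clear of the band in the controls and have no esculetin peak, and Oasl1 is higher in both esculetin libraries.

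The wider window of each gene, from 10 kb before it to its 3′ end, was then compared, counting a peak shared by neighbouring genes once. The controls had 32 and 38 peaks and the esculetin lists 8 and 21, and the groups did not overlap, as over the windows of all coding genes (14985 and 21941 against 7209 and 10320). As a share of each list the groups overlapped, at 0.164% and 0.137% for the controls and 0.0932% and 0.166% for esculetin. The means were 35.0 ± 4.24 and 14.5 ± 9.19 (SD, n = 2 each), a ratio of 2.41 with an exact permutation p of 0.33, against a ratio of 2.11 over the windows of all coding genes. Window peaks were thus fewer over all coding genes too, and the difference between the ratios was not tested. With the 8581 strongest peaks of each list window peaks numbered 13 and 5 for the controls and 8 and 12 for esculetin, and over all coding genes 7183 and 7063 against 7209 and 7542. Merging the peaks of the 4 libraries gave 52 regions, 27 at promoters, 14 in gene bodies and 11 upstream. Both controls but neither esculetin library had a peak in 10 regions (19.2%), against 13.9% of 36037 merged regions genome-wide, and in both esculetin libraries alone in none, against 0.832%. The 10 regions were the promoters of Usp18, Eif2ak2, Oas2, Mx2, Ifi47 and Herc6, and gene-body sites of Adar, Oas3, Samhd1 and Rtp4. With no genome-wide share given here for comparison, all 4 libraries shared 6 of the 52 regions. These were the promoters of Oasl1, Samhd1 and Trim25, and sites near the TSS of the neighbouring genes Rpl27 (before Ifi35), Dtx3l (in Parp9) and Mvb12a (before Bst2). A total of 12 of the 41 genes had no peak in their window in any library, and the share of coding genes without one is not given here.

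Promoters with and without the ISRE letters were both among those called. Of the 22 genes with a match, 11 were never called, and the controls had 7 and 8 of them and the esculetin libraries 2 and 6. Over all coding genes, 56.4% were never called, and 37.3% and 38.8% were called in the controls and 27.9% and 34.9% with esculetin. Of the 10 genes with a promoter window and no match, 2 were never called, and the controls had 7 and 7 and the esculetin libraries 3 and 6. Genes with a match were called in smaller shares than coding genes in all 4 libraries, and genes without one in larger shares. These differences were not tested. Called in both controls but neither esculetin library were 2 genes with a match and 1 without, against 3.34% of coding genes. Usp18, Oas2 and Mx2 were not among the genes with a promoter sequence in the table, nor were Mx1, Dhx58, Parp9, Parp14, Rtp4 and Zbp1. Where a called gene held a match in the same window, the summit lay 7 to 844 bp from the nearest match. The median was 56 bp over 22 summits of 10 genes, leaving out Adar, whose window stands at its internal start. A promoter called in several libraries counts several times here. Matches were sought from 250 before to 50 after a start and summits within 1 kb, so the search itself kept distances short. Distances at other promoters are not given here.

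Genes that carry the interferon signal had promoter peaks in larger shares, without a test of that difference. Of 28 pathway genes, each control had 19 (67.9%) and esculetin replicates 1 and 2 had 15 and 18 (53.6% and 64.3%), with an exact permutation p of 0.33. The esculetin mean was 0.868 of the control mean, near the 0.825 of all coding genes, whose shares were 37.3% and 38.8% against 27.9% and 34.9%. With the 8581 strongest peaks of each list the counts were 12 and 11 for the controls and 15 and 17 for esculetin, and the shares of all coding genes turned the same way (25.5% and 17.9% against 27.9% and 30.2%). A promoter peak was called in all 4 libraries for 13 of them (46.4%, against 24.8% of coding genes), among them the receptor genes Ifnar1 and Ifngr1, the kinase genes Jak1, Jak2 and Tyk2, and the transcription factor genes Irf1 and Irf2. Irf9, Irf8, Ifnar2 and Tlr4 lacked a call in esculetin replicate 1 only. Mb21d1, which encodes the DNA sensor cGAS, was the only pathway gene called in both controls and in neither esculetin library (3.57%, close to the 3.34% of coding genes), and 8 were never called (28.6%, against 56.4%), Irf7 and Ifnb1 among them.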

How the data were processed

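ATAC-seq was carried out on RAW264.7 cells in 4 libraries, 2 per group, grouped by the treatment label. The authors used Trim-Galore for trimming, Bowtie2 for alignment to mm10, Sambamba to discard duplicates and reads with several matches, and MACS2 to call peaks library by library. Its options, including any shift for the transposase, are not given in the sources used here. The deposited lists give per summit a fold (a linear ratio over background) and −log10 p and q. The deposited score carries the −log10 q in whole numbers and was not used. With no read counts in the lists, a count model was not run.

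Chromosomes 1 to 19, X and Y were used. Coverage and background were solved from fold and p for 100% of peaks with a −log10 p under 250, assuming MACS2's Poisson model and added 1. The procedure was checked on simulated data. Strand came from the RefSeq promoter table for 32 of the 41 genes and from GENCODE vM39, without its coordinates, for 9. Both sources gave the same strand for 99.4% of 22110 genes. Start sites other than the gene's 5′ end were used only in an alternative.

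The result of 1 pathway gene, which the list counts include, is not reported here by name. The genes and lists were chosen with earlier results of these data known. Values in every library are given for genes called in both libraries of a group but not both of the other, and, per role, for the strongest and weakest called in all 4. The percentile bins, the relative coverage and its limits were added after the calls were seen, as were the values outside the 1 kb limit and the choice of printed sequences. Computations used Python 3.11.15, NumPy 2.4.6, SciPy 1.17.1, pandas 2.3.3 and matplotlib 3.10.9.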

Additional observations from a re-analysis of the deposited data

How the results depend on the processing

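With 2 libraries per group the exact permutation test cannot give p under 0.33, so only directions and sizes are compared. With the 8581 strongest peaks of each list, the difference (esculetin minus control) in genes with a promoter peak turned from -9.5 to 1, that in window peaks from -20.5 to 1, and that in pathway genes from -2.5 to 4.5, while genes called in both control libraries only went from 6 to 1 and those in both esculetin libraries only from 0 to 1. This setting shortens the other 3 lists to the length of the shortest. Leaving out 1 library gave differences of -13 to -6 genes, -27 to -14 window peaks and -4 to -1 pathway genes. Genes called in the controls only then numbered 7 to 11 (9 without control replicate 1, 11 without esculetin replicate 2). Those called in the esculetin libraries only numbered 0 to 2. In these patterns a group with 1 library needs 1 call. Coding-gene shares without control replicate 1 or without esculetin replicate 1 are not given here. The median percentile of the genes called in every library, 3 genes in all, differed by -2.54 points and by -20.0 to 9.19 points when 1 library was left out (9.19 without control replicate 1), where the genes called in all remaining libraries numbered 3 to 8. By rank from the top of the list the difference was -6179 places, which is the opposite direction, since a smaller rank is a stronger peak. List length moves this measure by itself, because a shorter list gives smaller ranks. The other settings were a start site distance of 500 bp or 2 kb, any base of the peak and a −log10 q of at least 3. Shorter windows, no gene-end summits and the percentile of the fold were also used. All of these kept every direction. The differences in genes and window peaks and the pattern counts stayed within 1.5 times. The exception was -13.5 window peaks with windows ending 1 kb after the start. The percentile difference moved to -14.3 points at 500 bp, with the groups not overlapping. That value rests on 2 genes and leaves out Oasl1, whose summits lay 603 to 641 bp before its TSS. The percentile difference was -7.16 at 2 kb (4 genes), -4.23 at the stricter q and -4.78 for the fold. Counting any RefSeq start gave a difference of -10 genes and the same pattern counts of 6 and 0, and it was chosen after seeing the data, as were all alternatives for the pathway genes. A replicate block on the shared numbers gave the same differences of -9.5 genes, -20.5 window peaks and -2.54 points, with exact sign-flip p-values of 0.5, 0.5 and 1. The labels do not say that a number pairs libraries, the peak names in the lists labelled esculetin replicates 1 and 2 carry the tags E2 and E3, and no correlation check was possible with 2 pairs.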

Other observations

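Some peaks near these genes were called in control replicate 2 alone and lay more than 1 kb from the gene's own start site. Eif2ak2 had there its strongest peak, at 78851005 to 78852118 on chromosome 17, 30864 bp into the gene and close to its 3′ end, with a relative coverage of 23.3. Dhx58 had 4 peaks in that library, 1601 bp into the gene and 4358, 6149 and 8167 bp before it (the last within 1 kb of the TSS of Kat2a), with relative coverages of 6.86 to 7.35. Adar had a peak 21619 bp into the gene with a relative coverage of 18.1. Upstream of Bst2, a peak 5268 to 5422 bp before the start was called in all libraries, within 1 kb of the Mvb12a TSS. Its relative coverages were 5.53 and 5.15 for the controls and 9.86 and 13.4 for esculetin. Of the 5317 coding promoters called in all libraries, 18.4% also had both esculetin values above both controls. At the shared sites near Rpl27 and Dtx3l the groups overlapped. Near Rpl27 the values were 7.22 and 9.07 for the controls and 7.85 and 12.2 for esculetin. Near Dtx3l they were 4.30 and 7.11 against 5.03 and 6.59.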
